A study of Mus musculus with 6 samples.

Results

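The tumour necrosis factor (TNF) superfamily is a set of signalling proteins with its own family of receptors, the TNF receptor superfamily. Its genes were taken from the deposited expression table by symbol, as every row beginning Tnfsf or Tnfrsf followed by a digit, and Tnf, Lta, Ltb, Ltbr, Fas, Fasl, Cd40, Cd40lg, Cd27, Cd70, Edar, Eda2r and Ngfr. The rule found 45 of the 35434 rows. These are 17 ligand genes, 27 receptor genes and Tnfsf13os, an antisense RNA of the Tnfsf13 locus that encodes no family protein and matched only by its name.

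The RNA came from the large intestine of mice with inflammatory bowel disease that had been given either control regulatory T cells (Tregs) or Tregs exposed to lenvatinib, an inhibitor of several receptor tyrosine kinases. The 6 libraries are titled int 2-1, int 2-2 and int 2-3 (group int 2) and int 3-1, int 3-2 and int 3-3 (group int 3), and the labels do not tie either number to a transfer. Strain, age, the way the disease was induced and the time after transfer are not given in the sources used here. Every difference below is therefore int 3 minus int 2, with no statement on which transfer it belongs to. Nothing in the labels ties each library to an animal of its own, so a p-value speaks only to the spread among these 6 libraries, which may be technical.

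Most ligands of the family are trimers that sit on the surface of immune cells or are shed from it. Binding gathers receptors into clusters, and the receptors recruit TRAF or death domain adaptors that lead to NF-kB activity, to cell survival or to cell death. In the gut wall TNF is a main inflammatory cytokine. Lymphotoxin builds and maintains lymphoid follicles, and the ligands BAFF (Tnfsf13b) and APRIL (Tnfsf13) keep B cells and plasma cells alive.

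Values are FPKM (fragments scaled to a kilobase of the gene and to 1e6 fragments of the library), which are per length and so can be set side by side between genes. Each library held 34.0 to 35.1 M fragments (M, 1e6), as the steps in the FPKM values give it. The label of large intestine was checked on markers. Epcam, an epithelial adhesion gene, stood at 595 to 700 FPKM, while the small intestinal genes Sis, Lct and Apoa4 were at or near 0. Other small intestinal genes were present and uneven in int 3: Fabp2, which binds fatty acids, stood at 68.6 to 75.8 FPKM in int 2 but at 95.3, 169 and 24.5 in int 3, and Alpi, an alkaline phosphatase, at 0.224 to 0.387 but at 2.11, 4.33 and 0.0244. Their part in the members' levels was not tested. The int 3 libraries were uneven. Taken gene by gene, log2 differences within int 2 had an SD of up to 0.115 for any pair of libraries, and within int 3 one of 0.271 to 0.513. Hoxb13, which marks the distal colon, was at 285 to 288 FPKM in int 2 but at 146, 16.4 and 267 in int 3.

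In the RefSeq gene order of GRCm38.p6, Ltb, Tnf and Lta follow each other with 0 protein-coding genes between them. Their upstream sequences are shown because these 3 adjacent genes differed in direction: Tnf rose in int 3, Ltb fell, and Lta, too low to test, had its lowest values there. The sequences are those of RefSeq (GRCm38.p6, while the authors' table was made on GRCm39), 5′ to 3′ on the strand of the gene. Those of Tnf and Lta hold the 250 bases before the RefSeq start. That of Ltb ends 68 bases before it, where a transcript of the GENCODE annotation already begins. Capitals mark matches, on either strand, to GGG and CC with any 5 bases between them, a loose form of the kappaB site that NF-kB binds. In Lta the capitals cover 2 overlapping matches.
Tnf (chr17:35202008-35202257, minus strand): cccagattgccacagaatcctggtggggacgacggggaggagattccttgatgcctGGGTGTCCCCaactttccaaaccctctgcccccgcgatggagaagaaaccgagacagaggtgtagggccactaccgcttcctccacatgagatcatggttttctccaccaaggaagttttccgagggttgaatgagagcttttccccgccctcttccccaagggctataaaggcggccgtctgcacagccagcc
Lta (chr17:35205352-35205601, minus strand): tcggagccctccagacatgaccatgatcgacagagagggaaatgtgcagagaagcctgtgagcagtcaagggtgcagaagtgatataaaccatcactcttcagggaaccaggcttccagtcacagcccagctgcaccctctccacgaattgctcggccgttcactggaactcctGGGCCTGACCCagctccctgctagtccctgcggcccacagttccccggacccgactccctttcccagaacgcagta
Ltb (chr17:35194257-35194438, plus strand): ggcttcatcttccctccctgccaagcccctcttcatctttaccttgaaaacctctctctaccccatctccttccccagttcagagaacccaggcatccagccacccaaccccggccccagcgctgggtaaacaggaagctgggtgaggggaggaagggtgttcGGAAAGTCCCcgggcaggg

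The loose pattern is common. Over the 250 bases before the start, it was present in 23 of the 34 member genes that had a RefSeq promoter (67.6%) and in 45.4% of the promoters of all 27025 genes. A narrower form, GGG followed by any 2 bases and TTTCC, is a subset of the loose pattern. It was present in the promoters of Ltb and Tnfrsf25 and in 1.40% of all promoters, on either strand. GAAA repeated after any 2 bases, a core of the element bound by interferon-regulated factors, was present in those of Tnfrsf14, Tnfrsf17 and Tnfrsf1b and in 3.04% of all promoters. A match describes letters and does not show binding.

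The median mean level over the 6 libraries was 0.644 FPKM for the 17 ligand genes and 2.17 for the 27 receptor genes. In the 3 int 2 libraries, in the order of their numbers, the ligand genes summed to 45.6, 46.3 and 46.1 FPKM and the receptor genes to 168, 171 and 166. In the int 3 libraries, in the same order, the ligands summed to 31.2, 24.9 and 33.4 and the receptors to 197, 209 and 196. The sums rested on few genes. Without Ltb, the other 16 ligands summed to 20.3 to 21.3 FPKM in int 2 and to 22.4 to 25.1 in int 3, so the direction turned. Without Ltbr and Tnfrsf1a, the other 25 receptors summed to 97.1 to 101 FPKM in int 2 and to 94.3 to 104 in int 3, with overlap. Of the ligands, Ltb had the highest mean over the 6 libraries (15.5 FPKM), and Tnfsf12 (6.89) and Tnfsf10 (4.41) came next. Of the receptors, Ltbr (44.6) and Tnfrsf1a (41.1) led, before Tnfrsf12a (19.0), Tnfrsf11a (15.5) and Tnfrsf21 (14.1).

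A member was tested where it reached FPKM 1 in at least 3 libraries, which 25 of the 45 did (8 ligands, 16 receptors and Tnfsf13os). Changes are differences of the mean of log2(FPKM + 1) between the groups, tested with limma, and a gene rose or fell where its Benjamini-Hochberg adjusted p over the 12525 tested genes was under 0.05. Of all genes tested, 15.3% passed, 8.64% as higher and 6.70% as lower in int 3. The higher genes were 56.3% of those that passed, 67.7% when the values were rescaled to TPM, 50.6% with median-of-ratios scaling and 48.4% with voom. Of the tested members 9 passed (36.0%), with 5 higher and 4 lower. The members' median log2 change was 0.02, against 0.03 for all tested genes. Groups did not overlap for 15 of the 25 members (60.0%) and for 40.4% of all tested genes. Tnf reached the filter only through its int 3 values, and Tnfsf11 only through its int 2 values. Of the members that fell, Tnfrsf13b and Tnfrsf13c were at FPKM 1 or more in all int 2 libraries but not in all of int 3. The counts above therefore describe the tested members and not the family. With 1 library left out, 4 to 8 members rose and 2 to 6 fell. The count was 8 higher without int 3-2 and also without int 3-3, and 2 lower without int 2-1, int 2-2, int 2-3 or int 3-1.

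**Figure D1:**
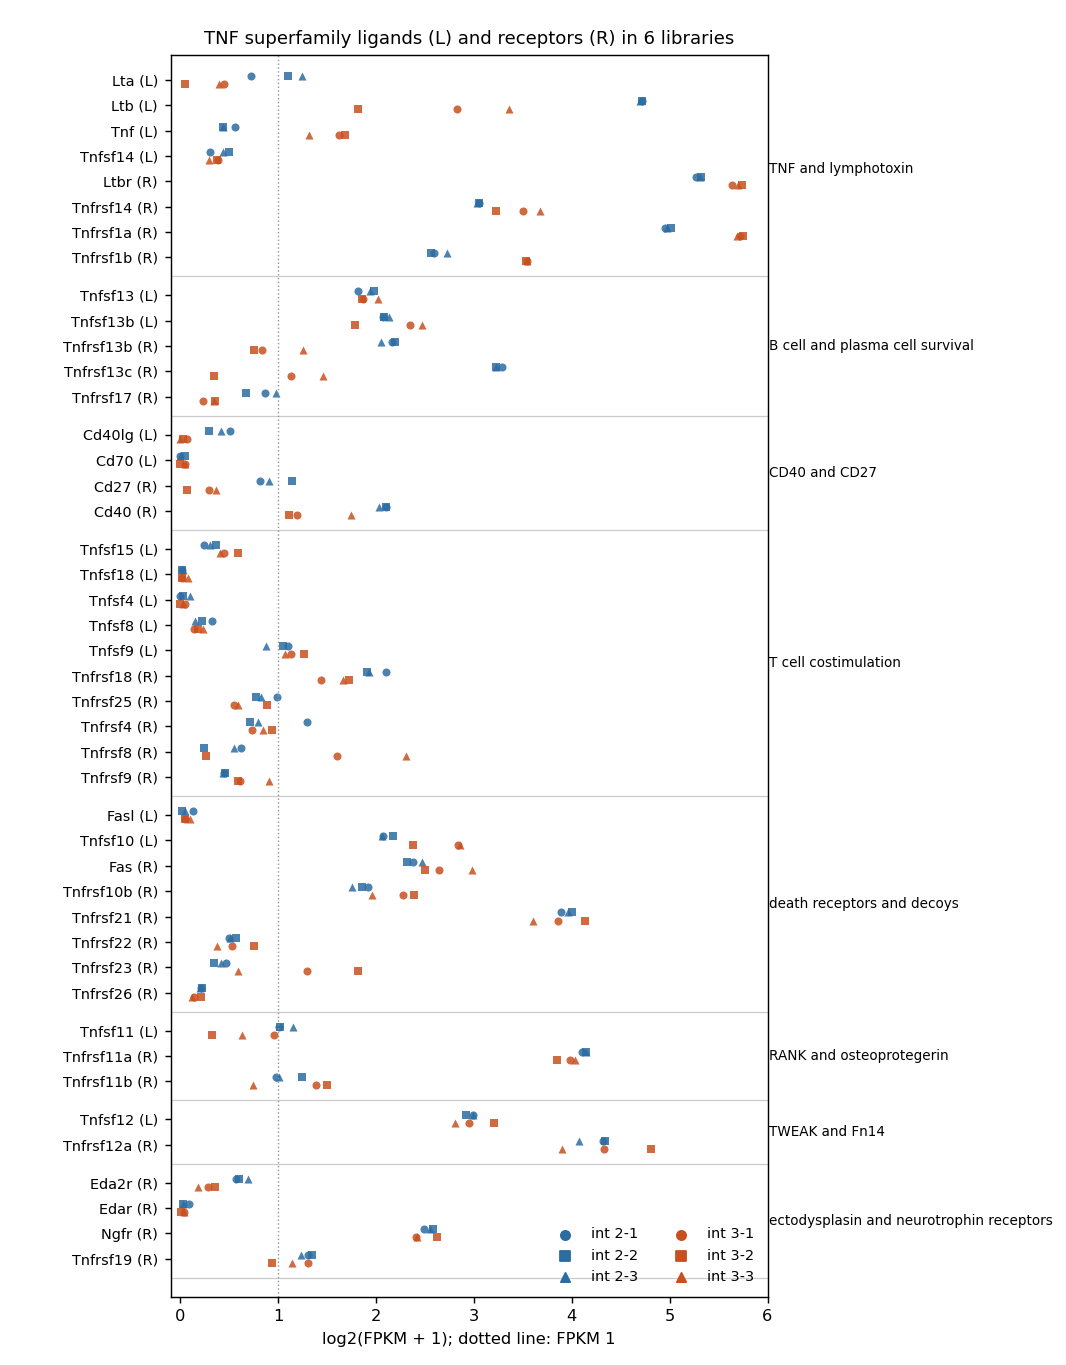
Level of each family member in each library as log2(FPKM + 1) on the horizontal axis, by role, with ligands (L) and receptors (R) named on the vertical axis. Blue points are int 2 and orange points int 3. Circles, squares and triangles are libraries 1, 2 and 3, and the dotted line is FPKM 1. Tnfrsf1a, Tnfrsf1b and Ltbr lie to the right in int 3, and Ltb and Tnfrsf13c to the left.

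TNF and both of its receptors rose. Tnf, the cytokine of macrophages and T cells that names the family, stood at 0.477, 0.351 and 0.354 FPKM in int 2 against 2.07, 2.20 and 1.48 in int 3 (libraries 1, 2 and 3 of a group in this order, here and below). These values rest on 27, 20 and 20 fragments in int 2 and on 117, 124 and 86 in int 3. All int 3 libraries lay above all int 2 libraries, and the mean FPKM was 4.88-fold higher (log2 change 1.06, SE 0.12, limma adjusted p = 0.0033). Tnf reached the filter only through int 3, and with no filter its limma adjusted p was 0.0091. On the scale used, the added 1 compresses so low a gene, and with 0.1 added in its place the log2 change was 2.02.

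Tnfrsf1a encodes TNF receptor 1, which most cell types carry and which holds a death domain. Its level was 29.9, 31.2 and 30.3 FPKM in int 2 against 51.8, 52.9 and 50.7 in int 3. The groups were far apart compared with their spread, at a ratio of means of 1.70 (log2 change 0.75, SE 0.05, adjusted p = 0.00046). Tnfrsf1b encodes TNF receptor 2, found mainly on leukocytes, Tregs included, and on endothelium, and it has no death domain. It stood at 5.05, 4.91 and 5.62 FPKM in int 2 against 10.6, 10.6 and 10.7 in int 3 (log2 change 0.91, SE 0.06, adjusted p = 0.00077). For Tnfrsf1b the int 3 libraries, uneven for many other genes, had an SD of 0.0379 FPKM, below the 0.378 of int 2.

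Tnf rose by a larger factor than its receptors. For each FPKM of Tnf there were 62.7 to 88.9 of Tnfrsf1a in int 2 and 24.0 to 34.2 in int 3. Markers of cell types that carry these receptors also differed. Among 12 macrophage and monocyte markers 7 were higher in int 3 and 2 lower, and their summed FPKM was 494 to 497 in int 2 and 408 to 545 in int 3. Most of that sum was Lyz2, the lysozyme of myeloid cells, which fell, as did Ly6c2 of inflammatory monocytes. Without Lyz2 the other 11 summed to 158 to 163 FPKM in int 2 and to 211 to 263 in int 3. Of those that rose, Fcgr1 reached the filter only through int 3. C1qa, a complement gene of tissue macrophages, also rose and stood at 33.6 ± 0.116 FPKM (SD, n = 3) in int 2 and at 56.8 ± 3.15 in int 3. Endothelial markers summed to 108 to 114 FPKM in int 2 and 131 to 226 in int 3, with Plvap and Vwf higher and Lyve1 lower of 8. The 9 neutrophil markers summed to 39.7 to 40.3 FPKM in int 2 and to 77.2 to 162 in int 3, and most of this was Ly6g (38.9 to 39.7 in int 2 against 106, 51.8 and 155 in int 3), which did not pass (adjusted p = 0.070). The other 8 summed to 0.673 to 0.870 FPKM in int 2 and to 14.1, 25.4 and 6.88 in int 3, highest in int 3-2, where Ly6g was lowest within int 3. S100a8 and S100a9, calcium-binding genes of neutrophils, passed as higher, but reached the filter only through int 3. Mpo and Ngp, granule genes of neutrophil precursors, were at or near 0 in all libraries. The part of these cells in the rise of Tnf and its receptors was not tested.

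Of the lymphotoxin ligands, Ltb fell and Lta was too low to test. Ltb, the membrane-bound lymphotoxin beta chain made mostly by lymphocytes, stood at 25.3, 25.3 and 24.9 FPKM in int 2 against 6.10, 2.52 and 9.22 in int 3. No int 3 library came near int 2, and int 3-2 was lowest (log2 change -2.04, SE 0.36, adjusted p = 0.015). Without int 2-1, int 2-2, int 2-3 or int 3-1 Ltb did not pass (adjusted p = 0.073, 0.075, 0.073 and 0.064), at a log2 change of -2.04 or lower. Lta, the soluble lymphotoxin alpha chain that also binds the TNF receptors, was below the filter at 0.646, 1.14 and 1.37 FPKM in int 2 against 0.360, 0.0361 and 0.316 in int 3. Only 2 fragments of Lta were counted in int 3-2. Of 8 markers of follicular dendritic cells and lymphoid stroma, 6 fell as well, and their summed FPKM was 326 to 334 in int 2 and 128 to 230 in int 3. Among these 6, Fcer2a and Cr2 are also B cell genes, while Ccl21a, a chemokine of lymphoid stroma and lymphatics, went from 109 ± 2.57 to 47.3 ± 6.81 FPKM (SD, n = 3). Fcer2a and Glycam1 of this list reached the filter only through int 2. Cxcl13 and Madcam1 did not pass. Cxcl13 stood at 42.6 to 45.8 FPKM in int 2 against 38.4, 15.0 and 58.5 in int 3. Madcam1 stood at 4.96 to 6.76 FPKM in int 2 against 7.28, 9.24 and 6.73 in int 3. Most of the summed FPKM was Ccl21a and Mfge8 (145 to 147 in int 2 and 59.0 to 106 in int 3), which both fell. The part of these cells in the fall of Ltb was not tested.

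Ltbr, the receptor of the lymphotoxin heterotrimer on stromal, epithelial and myeloid cells, rose. It stood at 37.6, 39.0 and 38.6 FPKM in int 2 against 48.9, 52.5 and 50.8 in int 3 (log2 change 0.39, SE 0.05, adjusted p = 0.0046). Of 8 fibroblast and stroma markers 5 rose and 0 fell, with a summed FPKM of 400 to 403 in int 2 and 453 to 531 in int 3, and the part of these cells in the rise of Ltbr was not tested. Ltb fell while its receptor rose, so the ratio of Ltbr to Ltb widened. It was 1.49, 1.54 and 1.55 in int 2 and 8.02, 20.8 and 5.51 in int 3. The neighbours of Ltbr in the gene order differed in direction from each other. Tnfrsf1a, which rose, and Cd27, which was lower in int 3 and is described with the B cell genes, each lie 1 protein-coding gene away from it.

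Tnfsf14, the ligand LIGHT that binds both Ltbr and Tnfrsf14, stood at 0.229, 0.411 and 0.353 FPKM in int 2 against 0.307, 0.293 and 0.224 in int 3, and the groups overlapped. Tnfrsf14, the receptor HVEM of lymphocytes and epithelium, stood at 7.26, 7.30 and 7.18 FPKM in int 2 against 10.3, 8.32 and 11.8 in int 3. Its groups did not overlap, yet it did not pass (log2 change 0.42, SE 0.12, adjusted p = 0.058). It passed with the values rescaled to TPM (0.025), with weights per library (9.8e-05), without int 3-2 (0.0033) and without int 3-3 (0.035). The weights were 4.92 for int 3-1 but 0.182 for int 3-2 and 0.192 for int 3-3, so the weighted fit rests mostly on int 3-1 within that group. It did not pass with voom (0.072), with median-of-ratios scaling (0.12), with no filter (0.11) or with any other library left out.

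**Figure D2:**
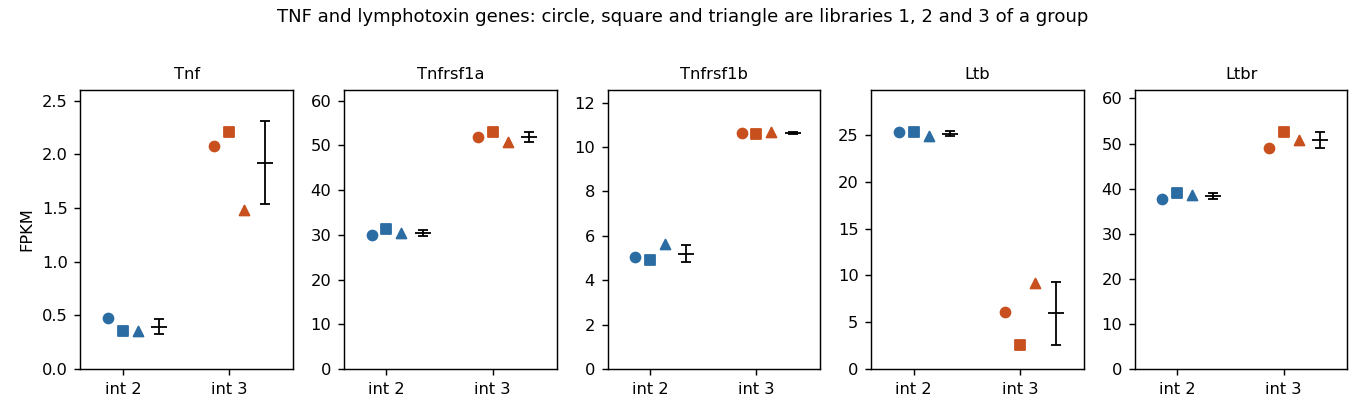
FPKM (vertical axes, each from 0) of Tnf, Tnfrsf1a, Tnfrsf1b, Ltb and Ltbr in int 2 (blue) and int 3 (orange). Each point is a library, and the black bar beside each group is the mean with its SD over 3 libraries. Tnf, Tnfrsf1a, Tnfrsf1b and Ltbr are higher in every int 3 library than in any int 2 library, and Ltb is lower.

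Of the genes of B cell survival, 2 receptors fell and the ligands did not pass the test. Tnfrsf13c, the BAFF receptor on which mature B cells depend, stood at 8.76, 8.33 and 8.37 FPKM in int 2 against 1.19, 0.271 and 1.75 in int 3. The fall was 7.93-fold in the means, with int 3-2 lowest at 18 fragments (log2 change -2.27, SE 0.27, adjusted p = 0.0042). Tnfrsf13b, the receptor TACI of B cells and plasma cells that binds BAFF and APRIL, stood at 3.48, 3.56 and 3.13 FPKM in int 2 against 0.784, 0.685 and 1.39 in int 3 (log2 change -1.19, SE 0.14, adjusted p = 0.0043). With 0.1 added in place of 1, its log2 change was -1.79. Tnfrsf17, the receptor BCMA of plasma cells, was below the filter at 0.815, 0.598 and 0.969 FPKM in int 2 against 0.172, 0.281 and 0.273 in int 3.

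BAFF and APRIL, the ligands of these receptors, did not pass. Tnfsf13b stood at 3.19, 3.24 and 3.38 FPKM in int 2 against 4.07, 2.45 and 4.53 in int 3, with int 3-2 below and the other 2 above int 2 (log2 change 0.10, 95% confidence interval -0.32 to 0.53). Tnfsf13 stood at 2.52, 2.94 and 2.84 FPKM in int 2 against 2.65, 2.61 and 3.06 in int 3 (log2 change 0.00, interval -0.19 to 0.20). For each FPKM of Tnfsf13b there were 2.74, 2.57 and 2.47 of its receptor Tnfrsf13c in int 2 but 0.291, 0.111 and 0.387 in int 3. With 1 library left out, Tnfsf13b passed as higher only without int 3-2 (0.31, adjusted p = 0.027). Tnfsf13os stood at 16.4 to 19.4 and 14.6 to 20.7 FPKM. Whether the counting used strand was not given in the sources used here, so fragments of Tnfsf13os and of the overlapping Tnfsf13 locus cannot be told apart.

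CD40, the receptor through which T cells help B cells and activate macrophages, fell. Cd40 stood at 3.28, 3.30 and 3.10 FPKM in int 2 against 1.29, 1.16 and 2.36 in int 3, and int 3-3 came closest to int 2 (log2 change -0.73, SE 0.17, adjusted p = 0.037). Without int 2-1, int 2-2, int 2-3 or int 3-1 the adjusted p was 0.14, 0.14, 0.12 and 0.14, and with no filter it was 0.082. Its ligand Cd40lg, made by activated helper T cells, was counted as 19, 10 and 15 fragments in int 2 and 2, 1 and 0 in int 3. Cd27, a receptor of T cells and memory B cells, stood at 0.757, 1.20 and 0.872 FPKM in int 2 against 0.226, 0.0487 and 0.283 in int 3. Cd70, its ligand, gave 3 fragments in all 6 libraries together.

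In the group in which these members were lower, markers of B cells and T cells were lower too. The summed FPKM of 12 B cell markers was 183, 188 and 180 in int 2 and 32.6, 7.97 and 52.3 in int 3, and all 12 fell. The summed FPKM of 11 T cell markers was 30.1 to 32.2 in int 2 and 13.9, 8.93 and 18.3 in int 3, with 5 of 8 tested genes lower and 0 higher. Plasma cell markers summed to 492 to 499 FPKM in int 2 and 280 to 333 in int 3, with 4 of 7 lower, but without Jchain, the joining chain of antibodies, the other 7 listed summed to 219 to 225 and to 198 to 306, with overlap. Fcer2a of the B cell list, Cd5 of the T cell list and Irf4 of the plasma cell list reached the filter only through int 2. Of the B cell list, only Cd79a, Cd79b and Spib were at FPKM 1 or more in every int 3 library, so the other falls also needed int 2 to be tested. In bulk tissue, fewer cells of a type and less RNA per cell cannot be told apart, and the part of each cell type in these falls was not tested.

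Set against the B cell markers, the members did not follow 1 pattern. Per 100 FPKM of summed B cell markers, Tnfrsf13c stood at 4.79, 4.44 and 4.64 FPKM in int 2 against 3.64, 3.40 and 3.35 in int 3. On this sum the BAFF receptor was thus lower per marker in each int 3 library than in any of int 2. The sum includes Spib, which is also listed with the M cell genes below. Spib gave 10.2 of 188 FPKM in int 2-2 but 2.22 of 7.97 in int 3-2. The separation of Tnfrsf13c therefore depends on counting Spib as a B cell marker. Ltb stood at 13.8, 13.5 and 13.8 per 100 in int 2 and at 18.7, 31.7 and 17.6 in int 3, and Tnfrsf13b at 1.90, 1.90 and 1.74 and at 2.41, 8.59 and 2.66. For Cd40 the values were 1.80, 1.76 and 1.72 in int 2 and 3.95, 14.5 and 4.51 in int 3. Ltb, Tnfrsf13b and Cd40 were thus higher per marker in each int 3 library than in any of int 2, and highest in int 3-2, where the B cell markers were scarcest. Cd27, Lta and Tnfrsf17 overlapped between the groups on this scale. The 7 ratios were compared with an exact two-sided permutation test of 3 against 3 libraries. For Tnfrsf13c, Tnfrsf13b, Cd40 and Ltb it gave p = 0.10 (0.18 adjusted over the 7), which is the smallest p the exact test allows here, so the design cannot reach 0.05.

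**Figure D3:**
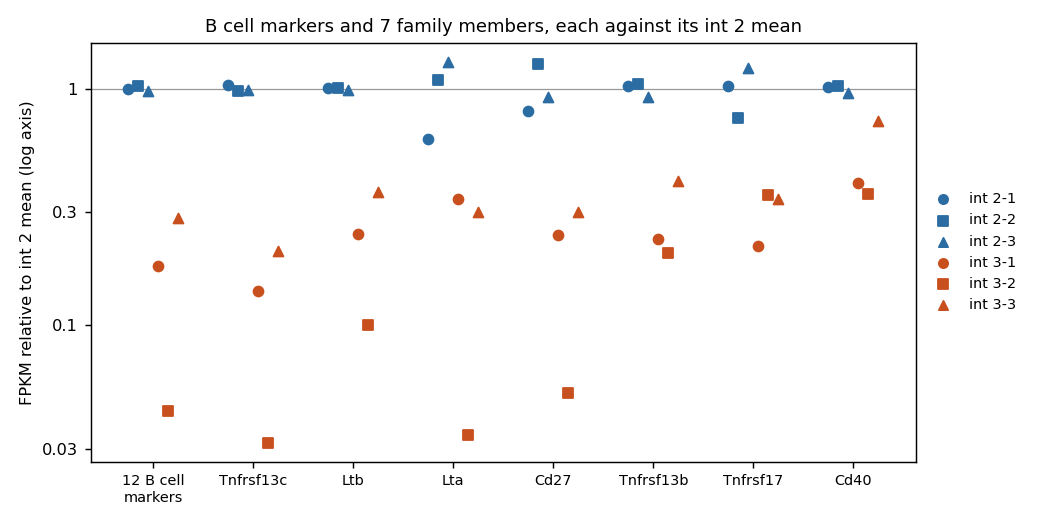
FPKM of the 12 summed B cell markers and of 7 family members in each library, divided by the mean of the 3 int 2 libraries (vertical axis, log scale). Blue is int 2, orange is int 3, and circles, squares and triangles are libraries 1, 2 and 3. Int 3-2 has the lowest marker sum, Tnfrsf13c, Ltb, Lta and Cd27, but not the lowest Tnfrsf17.

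Of the death receptors, their ligands and decoys, 1 gene passed. Tnfsf10, the death ligand TRAIL, which interferons induce in many cells, stood at 3.19, 3.50 and 3.18 FPKM in int 2 against 6.13, 4.19 and 6.27 in int 3. The groups did not overlap, with int 3-2 nearest to int 2 (log2 change 0.59, SE 0.14, adjusted p = 0.037). Without int 2-1, int 2-2, int 2-3 or int 3-1 the adjusted p was 0.14, 0.12, 0.14 and 0.14. It was 0.079 with no filter and 0.065 with median-of-ratios scaling.

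Tnfrsf10b, the death receptor of TRAIL, stood at 2.79, 2.61 and 2.38 FPKM in int 2 against 3.83, 4.23 and 2.88 in int 3 (log2 change 0.36, SE 0.12, adjusted p = 0.10). With 1 library left out, it passed only without int 3-3 (0.0071). The order within int 3 was the reverse of that of its ligand: int 3-2 had the highest Tnfrsf10b and the lowest Tnfsf10. Tnfrsf22 and Tnfrsf23, decoy receptors of TRAIL in the mouse, lie next to each other and to Tnfrsf26 in the gene order, and are close paralogs whose shared fragments may have been split. Tnfrsf23 was at 0.383, 0.273 and 0.333 FPKM in int 2 against 1.46, 2.52 and 0.508 in int 3, all above int 2. Tnfrsf22 was at 0.408, 0.483 and 0.419 FPKM in int 2 against 0.446, 0.681 and 0.293 in int 3, and Tnfrsf26 at 0.150 to 0.162 and 0.0863 to 0.157, each with overlap.

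Fas, the death receptor that removes activated lymphocytes and infected cells, stood at 4.18, 3.97 and 4.54 FPKM in int 2 against 5.23, 4.67 and 6.92 in int 3. It did not pass (log2 change 0.32, SE 0.13, adjusted p = 0.15), although the groups did not overlap, and it passed without int 3-2 (0.043). Fasl, its ligand on cytotoxic cells, gave 18 fragments over all libraries. Tnfrsf21, the death domain receptor DR6, stood at 13.9, 15.0 and 14.5 FPKM in int 2 against 13.5, 16.6 and 11.2 in int 3, on both sides of int 2 (log2 change -0.09, interval -0.40 to 0.23).

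Of the receptors and ligands of T cell costimulation, only Tnfsf9 and Tnfrsf18 were high enough to test and 0 passed (in limma Tnfrsf18 had an unadjusted p of 0.010 and Tnfsf9 one of 0.17). Tnfrsf18, the receptor GITR that is abundant on Tregs, stood at 3.29, 2.76 and 2.81 FPKM in int 2 against 1.71, 2.31 and 2.16 in int 3 (log2 change -0.37, SE 0.10, adjusted p = 0.058). It passed as lower with median-of-ratios scaling (0.043), with the library weights that favour int 3-1 (0.00040), without int 3-2 (0.030) and without int 3-3 (0.035). It did not pass with TPM (0.10), with voom (0.098) or with any other library left out. Foxp3, the defining transcription factor of Tregs, was at 0.179 to 0.288 FPKM in int 2 and 0.247 to 0.370 in int 3. The 6 listed Treg genes, Foxp3 included, did not share a direction. Il2ra was lower without overlap, at 0.648 ± 0.0548 FPKM (SD, n = 3) in int 2 and 0.437 ± 0.0729 in int 3. Lrrc32 stood at 2.47 to 2.98 FPKM in int 2 and 2.97 to 6.14 in int 3, and did not pass. Ctla4, Ikzf2 and Ikzf4 overlapped between the groups, as did Foxp3. The part of Tregs in the level of Tnfrsf18 was not tested. Tnfrsf4, the receptor OX40 of activated T cells and the neighbour of Tnfrsf18 in the gene order, stood at 0.634 to 1.46 FPKM in int 2 and 0.663 to 0.917 in int 3. Tnfsf9, the ligand of 4-1BB, was at 0.838 to 1.15 and 1.10 to 1.41 FPKM, with overlap.

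Levels of CD30 were uneven within int 3. Tnfrsf8, the gene of this receptor of activated lymphocytes, stood at 0.534, 0.183 and 0.461 FPKM in int 2 against 2.03, 0.202 and 3.93 in int 3. Thus int 3-1 and int 3-3 were above all int 2 libraries and int 3-2 was among them, on 242, 24 and 482 fragments. It lies next to Tnfrsf1b in the gene order, which was even over the same libraries. Tnfsf8, the CD30 ligand, was at 0.108 to 0.251 FPKM in int 2 and 0.101 to 0.175 in int 3. Tnfrsf9, the receptor 4-1BB, stood at 0.349 to 0.371 FPKM in int 2 against 0.524, 0.501 and 0.874 in int 3, without overlap. Tnfsf15, the ligand TL1A known for its genetic link to bowel disease, stood at 0.182 to 0.291 and at 0.360, 0.509 and 0.321 FPKM, also without overlap, and its receptor Tnfrsf25 overlapped (0.708 to 0.987 and 0.461 to 0.844). Tnfsf4 and Tnfsf18, the ligands of OX40 and GITR, gave 8 and 12 fragments in all.

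The RANK system orders bone resorption and, in the gut, the growth of M cells over lymphoid follicles. Tnfsf11, the ligand RANKL, stood at 1.01, 1.03 and 1.22 FPKM in int 2 against 0.944, 0.250 and 0.549 in int 3 (log2 change -0.42, SE 0.17, adjusted p = 0.14). Its receptor Tnfrsf11a, RANK, was among the more abundant family genes at 16.3, 16.7 and 16.7 FPKM in int 2 against 14.8, 13.4 and 15.3 in int 3 (log2 change -0.18, SE 0.06, adjusted p = 0.10). Both were lower in every int 3 library than in any int 2 library and neither passed. With 1 library left out, Tnfrsf11a passed only without int 3-3 (0.031). Tnfrsf11b, the soluble decoy osteoprotegerin, lay on both sides of int 2, at 0.963 to 1.37 FPKM in int 2 against 1.61, 1.83 and 0.673 in int 3. With 1 library left out, it passed as higher only without int 3-3 (0.041). Of 6 tested M cell genes, Gp2 and Spib fell, from 1.68 ± 0.346 to 0.152 ± 0.0826 FPKM and from 10.3 ± 0.229 to 3.03 ± 0.793 (SD, n = 3), and Tnfaip2 rose from 2.43 ± 0.187 to 5.42 ± 0.547. Gp2 reached the filter only through int 2. Ccl20 (13.7 to 17.4 FPKM in int 2 and 2.27 to 8.50 in int 3) did not pass, and Sox8 (0.596 to 0.811 and 0.201 to 0.214) was below the filter. Both were lower without overlap. The 7 listed M cell genes summed to 55.2 to 58.8 FPKM in int 2 and 48.2 to 88.1 in int 3. Most of the int 3 sum was Marcksl1 (25.5 to 50.5) and Ccl9 (4.79 to 27.7), which had higher means there and did not pass. The part of M cells in the levels of the RANK genes was not tested.

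TWEAK and its receptor did not pass. Tnfsf12, the ligand TWEAK, stood at 6.56 to 6.93 FPKM in int 2 and at 5.99 to 8.24 in int 3 (log2 change 0.02, interval -0.24 to 0.28). Tnfrsf12a, the receptor Fn14 that injured tissue induces, stood at 19.0, 19.3 and 15.8 FPKM in int 2 against 19.1, 27.1 and 14.0 in int 3 (log2 change 0.10, interval -0.44 to 0.64). Both genes were highest in int 3-2 and lowest in int 3-3.

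Among the receptors of neural and ectodermal type, Ngfr, the low-affinity neurotrophin receptor of enteric glia and nerves, was at 4.61 to 5.01 FPKM in int 2 and 4.31 to 5.16 in int 3 (log2 change -0.06, interval -0.25 to 0.14). Tnfrsf19, the receptor TROY found in intestinal stem cells, was at 1.35 to 1.54 and 0.915 to 1.47 FPKM (log2 change -0.17, interval -0.43 to 0.10). Eda2r, a receptor of ectodysplasin A2, was below the filter and lower without overlap, at 0.484 to 0.617 and 0.137 to 0.282 FPKM. Edar gave 30 fragments in all.

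**Figure D4:**
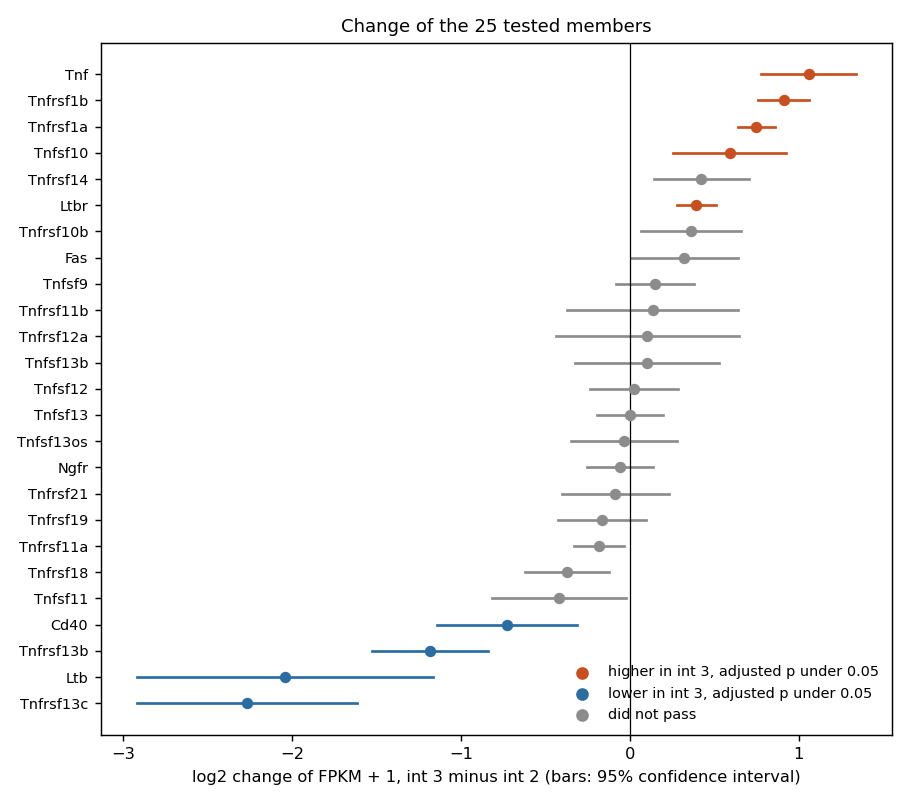
Log2 change of FPKM + 1 (horizontal axis, int 3 minus int 2) of the 25 tested members, with bars for the 95% confidence interval of the limma fit. Orange genes rose and blue genes fell at adjusted p under 0.05, and grey genes did not pass. Tnfrsf13c and Ltb, with the largest falls, also have the widest intervals among the genes that passed.

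Of the 20 members below the filter, 8 had groups that did not overlap, against 15.5% of the 12341 genes of the table that were below the filter and above 0 in some library. That share is not matched for level, since 15 of these members but a smaller part of those genes reached FPKM 0.1 in at least 3 libraries. Of the 8, Cd27, Cd40lg, Eda2r, Lta and Tnfrsf17 were lower in int 3 and Tnfrsf23, Tnfrsf9 and Tnfsf15 higher. When the filter was FPKM 0.1 in at least 3 libraries, 40 members were tested. Then Cd27, Cd40lg, Eda2r, Lta and Tnfrsf17 also passed as lower (limma adjusted p = 0.013, 0.019, 0.024, 0.038 and 0.016). Of all 16727 genes tested with that filter, genes of higher level included, 5.88% passed as lower. Cd40lg reached that filter only through its int 2 values. With that filter 0 of the 15 added members passed as higher, where 6.76% of all genes did, and Tnfrsf23, Tnfrsf9 and Tnfsf15 had adjusted p-values of 0.12, 0.14 and 0.16. With no filter their unadjusted p in limma was 0.037, 0.035 and 0.032, Lta did not pass (adjusted p = 0.072), and Cd27, Cd40lg, Eda2r and Tnfrsf17 did.

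Downstream of the receptors, 7 of 50 listed signalling genes passed. Of these genes of adaptors, ubiquitin ligases, death signalling, NF-kB kinases and subunits and TNF shedding, all were tested, 5 rose (10%) and 2 fell (4%), close to the 8.64% and 6.70% of all genes. The rises with the smallest p were those of Bcl3, a nuclear partner of NF-kB subunits (14.9 ± 0.487 to 30.5 ± 1.42 FPKM, SD, n = 3, limma adjusted p = 0.00035), Mlkl, the executor of necroptosis (4.64 ± 0.209 to 8.90 ± 0.820, 0.0020), and its kinase Ripk3 (10.4 ± 0.212 to 20.6 ± 3.28, 0.0043). Traf1, an adaptor of TNF receptor 2 and CD40 that lymphocytes express, fell from 3.04 ± 0.264 to 1.64 ± 0.192 FPKM (adjusted p = 0.0074), and Tab1, a partner of the kinase TAK1, from 9.03 ± 0.0131 to 7.42 ± 0.305 (0.027). Of the family genes that the symbol rule does not take in, the ligand gene Eda stood at 0.245 to 0.269 FPKM in int 2 and 0.262 to 0.483 in int 3, and the receptor gene Relt at 0.370 to 0.495 and 0.193 to 0.332. The number of pathway genes that rose was 4 to 12 with 1 library left out, the 12 without int 3-3, and 1 to 5 fell.

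The members' order within int 3 mostly put int 3-1 between the other libraries of the group. This held for 20 of the 25 tested members (80.0%) and for 73.5% of all tested genes. Over the tested members the median SD of log2(FPKM + 1) was 0.06 in int 2 and 0.23 in int 3, and over all tested genes 0.05 and 0.14. Tnf, Tnfrsf1a, Tnfrsf1b, Ltbr, Tnfrsf13b and Tnfrsf13c passed with each of the 6 libraries left out in turn.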

How the data were processed

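Expression was measured in 6 libraries of mouse large intestine, from total RNA extracted with TRIzol, per the labels' protocols. FPKM values for 35434 gene symbols stand in the 1 table that the authors deposited, and per the submitters' processing notes the genome build was GRCm39. Aligner, counting tool, annotation and strand handling are not given in the sources used here. Columns were matched to samples by title. Genes that reached FPKM 1 in 3 or more libraries (12525) were taken as log2(FPKM + 1) into limma 3.58.1 (R 4.3.3), with eBayes and a trend, two-sided, and p-values were adjusted by Benjamini-Hochberg over all of them at a threshold of 0.05. The fit takes 1 spread for both groups, although int 2 varied less. Data were simulated for this comparison (12525 genes, 200 changed, 10 draws). The share of changes found there was 58.4% at 1.5-fold, 83.0% at 2-fold, 97.6% at 4-fold and 98.8% at 8-fold. Of the genes called in those draws, 5.05% were false. Whether these shares hold for the measured libraries, with their larger spread in int 3, was not tested. Whole fragments were recovered from the steps of the FPKM values (99.9% of tested genes came out whole at a relative tolerance of 1e-06) and gave depth, fragment numbers and the input of voom. Ratios and permutation tests were made with Python 3.11.15 and scipy 1.17.1. All family members are accounted for, with values per library for those that passed and for their partners, and of the pathway lists the 3 passing genes of smallest p in each direction are named. Members, lists and tests were chosen with earlier results of these data known. Alternatives were pseudocounts of 0.1 and 0.01, other filters, TPM and median-of-ratios scaling, a block for the replicate number, weights per library, limma voom and leaving out each library.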

Additional observations from a re-analysis of the deposited data

How the results depend on the processing

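Of the 9 members that passed, Tnf, Tnfrsf1a, Tnfrsf1b, Ltbr, Tnfrsf13b and Tnfrsf13c kept direction and passed under every alternative in which they were tested, with adjusted p-values of at most 0.039, and Ltb, Cd40 and Tnfsf10 kept direction. Members higher in int 3, 5 in the design as reported, numbered 3 at a mean FPKM of 5 or more and 10 with library weights, and 4 to 8 with 1 library left out. Members lower, 4 in the design as reported, numbered 7 with no filter, 9 at FPKM 0.1 or more in at least 3 libraries, 1 at a mean of 5 or more and 7 with library weights, and 2 to 6 with 1 library left out. The stricter and looser filters changed which members were tested. Library weights gave int 3-1 a weight of 4.92 and int 3-2 and int 3-3 weights of 0.182 and 0.192. Over all genes, 1082 higher and 839 lower, weights gave 4271 and 2885, and leaving out 1 library 372 to 3124 (the highest without int 3-3) and 241 to 1789. At a mean of 5 or more 496 were lower. Of the pathway genes, 15 were higher and 6 lower with weights, 4 to 12 higher and 1 to 5 lower with 1 library left out, and 1 lower at a mean of 5 or more and with TPM. Same-numbered libraries of the groups did not deviate together (r over genes of -0.015, 0.0041 and -0.022), and no library correlated best with its own number. Such values cannot show whether same-numbered libraries share a source or a batch. With the replicate block 516 genes were higher and 373 lower, with 4 members higher, 3 lower and 1 pathway gene lower (Cd40 and Tnfsf10 at adjusted p-values of 0.080 and 0.091).

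Members near 0 changed sign, none of them past the threshold in the design as reported. Tnfsf12 was at -0.017 with median-of-ratios scaling, -0.0076 with voom and -0.014 with weights, Tnfsf13 under the same 3 at -0.030, -0.027 and -0.033, and Tnfsf13os at 0.032 with TPM. With 1 library left out, the log2 change ranged from -0.013 to 0.37 for Tnfrsf11b, from -0.13 to 0.33 for Tnfrsf12a, from -0.22 to 0.043 for Tnfrsf21, from -0.088 to 0.11 for Tnfsf12, from -0.051 to 0.035 for Tnfsf13, from -0.032 to 0.31 for Tnfsf13b and from -0.15 to 0.087 for Tnfsf13os. The cause was not tested. Depth limits the members below FPKM 0.1, where 1 fragment is a large share of the value.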
